A study of Sus scrofa with 2 samples.

Results

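The insulin-like growth factor (IGF) ligands, the type 1 receptor and the binding proteins of this family were examined in ovarian tissue of conventional pigs and minipigs. The 6 genes were IGF1, IGF2, IGF1R, IGFBP2, IGFBP3 and IGFBP5. They were taken as the named genes, and all array probes whose transcript accession belongs to one of them in the pig RefSeq annotation were counted as their probes. This gave 12 probes out of 43597 on the arrays, and 6 genes out of the 2459 that could be named in the same way. IGF2 had 5 probes, IGF1R and IGFBP2 had 2 each, and IGF1, IGFBP3 and IGFBP5 had 1 each. Both arrays read all 12 probes well above background, so none of them was lost to a filter on dim signals.

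Ovaries were collected on day 15 of the estrous cycle, when the corpora lutea regress, from Yorkshire sows as the conventional pigs and from Midget pigs as the minipigs. The methods describe 5 females of each breed, 10 months old, and the corpora lutea were cut away before RNA was extracted. The labels name no transgene and no treatment. Pooling of the animals before hybridisation is not given in the sources used here. RNA of each breed was hybridised in a single colour to 1 porcine Agilent array (called the conventional array and the minipig array here), so no difference has a replicate check, no test was run, and the number of arrays limits the precision. The study asked whether survival and growth signaling through the IGF pathway differs between the follicles of the breeds. The labels do not agree on which array is which breed. In a table of normalized values deposited beside the scanner files, the minipig column equals the log2 scanner values of the array labelled pig less a constant. Its conventional pig column equals those of the array labelled minipig less another constant. Over the 5613 probes compared, both hold to within 7.46e-07 on the log2 scale. The labels of the scanner files are used below, and under the labels of that table every direction would be exchanged.

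IGF1 and IGF2 are small secreted hormones that resemble insulin and act mainly through the receptor tyrosine kinase that IGF1R encodes. In the follicle they work together with follicle-stimulating hormone to keep granulosa cells alive, dividing and making steroids. In the pig ovary, granulosa cells are known as the main source of IGF1 and theca cells as a main source of IGF2. The IGF binding proteins hold the ligands in fluid and matrix, and for the most part keep them from the receptor until proteases such as PAPP-A cut the binding protein and set the ligand free.

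IGFBP2 and IGFBP3 differed far more between the arrays than the ligands and the receptor did. IGFBP2 was 19.8-fold higher on the minipig array and IGFBP3 was 4.77-fold higher on the conventional array, whereas IGF1, IGF2, IGF1R and IGFBP5 differed by 1.32-fold or less. Values below are levels, meaning log2 intensity minus the 75th percentile of the same array, or log2 differences, meaning the level on the conventional array minus that on the minipig array. Where first given, the probe differences of IGF1, IGF1R, IGFBP2, IGFBP3 and IGFBP5 carry a standard error. It follows from the scanner software's own error estimate for the spots. This error is between 0.20 and 0.21 for every probe of the 6 genes and does not include variation between animals. Probes printed several times on the arrays put the SD of a difference between single spots at 0.25. Levels are compared within a probe, since probes of different genes bind with different strength.

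**Figure D1:**
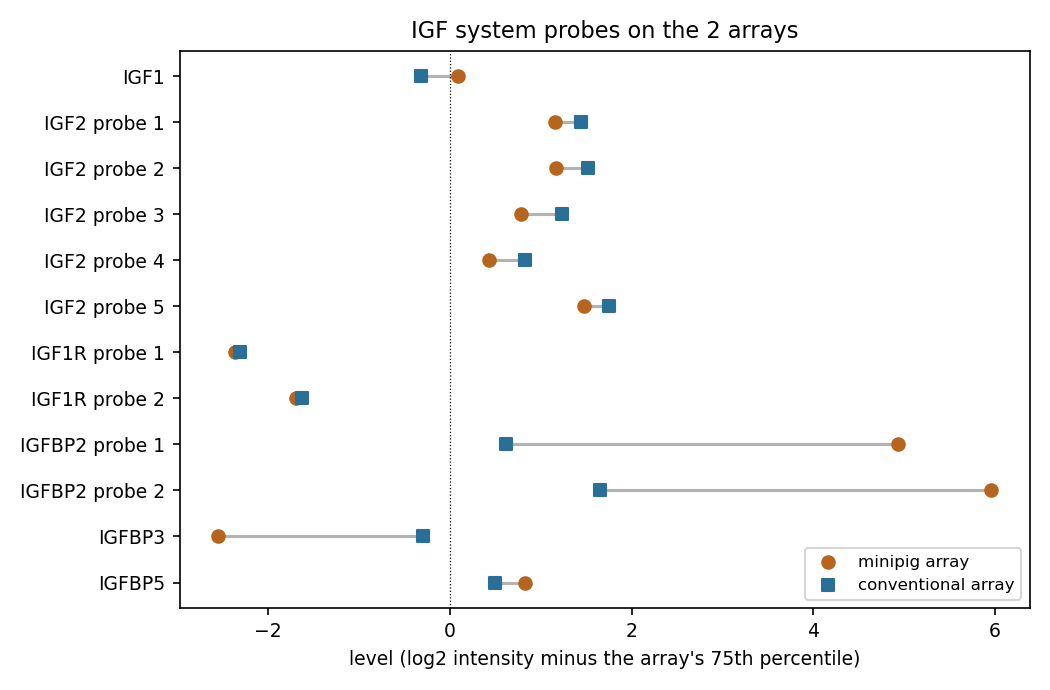
Levels (log2 intensity minus the 75th percentile of the array) of the 12 probes on the minipig array (circles) and on the conventional array (squares), joined by a line for each probe. The lines are long for the probes of IGFBP2, from 4.93 to 0.62 and from 5.96 to 1.65, and for IGFBP3, from -2.55 to -0.29, and short for the others.

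Among the ligands, IGF1 was read by a single probe, with an intensity of 526 on the minipig array against 412 on the conventional array. The corresponding levels were 0.09 and -0.32. The log2 difference was -0.40 ± 0.20 (SE of the spots), that is 1.32-fold higher on the minipig array. This is below 2-fold and less than 2 SDs of repeated spots (0.51), so the arrays do not separate IGF1 beyond the error of single spots by that measure.

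IGF2 went the other way, also by less than 2 SDs of repeated spots (0.51) on each of its probes. Its 5 probes had intensities of 666, 849, 1098, 1110 and 1374 on the minipig array. In the same order of probes, the intensities were 906, 1201, 1394, 1472 and 1720 on the conventional array, which was the brighter array for each of them. The log2 differences lay between 0.27 and 0.45, with a median of 0.35 (1.28-fold higher on the conventional array) and an SD over the 5 probes of 0.07. By comparison, the 65 genes with 5 probes that were well above background had a median SD of 0.21, and only 4 of them, IGF2 included, had as narrow a range over their probes. The 5 probes are repeated readings of the same RNA, so their agreement does not stand for agreement between animals. The gap between the log2 differences of IGF2 and IGF1 was 0.76, or 1.69-fold. A gap of this kind compares each gene with another on the same array, so the constant that sets the arrays to a common scale cancels out of it.

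IGF1R encodes the receptor through which both ligands signal. One of its probes had an intensity of 95.7 on the minipig array against 104 on the conventional array, and the other had 153 and 166. The log2 differences were 0.06 ± 0.21 and 0.07 ± 0.21 (SE of the spots), and the gene value of 0.06 corresponds to 1.05-fold. The receptor therefore differed between the arrays by less than the error of its spots. Differences are also to be read against the median over all 38883 probes that had a difference or a bound, which was -0.12. Relative to that median, IGF1R stood at 0.18 on either probe and IGF1 at -0.29.

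IGFBP2, a binding protein abundant in follicular fluid and in young, growing tissues, showed the largest difference of the 6 genes. Its probe A_72_P178161 had an intensity of 15076 on the minipig array against 787 on the conventional array. The probe A_72_P634395 had 30701 and 1613. The minipig array was thus the brighter one on each probe, by 19.9-fold and 19.7-fold. The log2 differences were -4.31 ± 0.20 and -4.30 ± 0.20 (SE of the spots), 0.01 apart, while the 637 genes with 2 such probes had a median gap of 0.28 between them. The spots of the 2 probes lie in rows 281 and 246 and in columns 5 and 42 of the array, away from each other. Their local background was 24 and 21 on the minipig array and 23 and 25.5 on the conventional array, close to the array medians of 21 and 23. A reading at least as low as that of IGFBP2 was found for 3 of the 2363 named genes with a value, IGFBP2 included.

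IGFBP3 encodes the main carrier of IGFs in blood, which binds them in a complex with the acid-labile subunit. Its only probe, A_72_P165666, had an intensity of 84.5 on the minipig array against 418 on the conventional array. The log2 difference was 2.25 ± 0.21 (SE of the spots), which is 4.77-fold higher on the conventional array. On the minipig array the median pixel signal of the spot was 114 over a local background of 22, so the lower of its 2 readings is dim but was called well above background. Among the named genes, 52 of 2363 had a difference at least as high. With normexp correction, which started from the median spot signals and added an offset of 50, the log2 difference was 1.82.

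IGFBP5 holds IGFs in the matrix and is cut by PAPP-A. Its probe had an intensity of 874 on the minipig array against 726 on the conventional array, a log2 difference of -0.32 ± 0.20 (SE of the spots), or 1.25-fold. In the RefSeq annotation, IGFBP2 and IGFBP5 are direct neighbours among the protein-coding genes. The log2 differences of these neighbours lay 3.99 apart, a 15.9-fold gap, and IGFBP5 itself did not differ beyond 2 SDs of repeated spots. IGFBP3 has IGFBP1 as its neighbour, and IGFBP1 was not named on the array. INS, a neighbour of IGF2, differed by 0.48, against 0.35 for IGF2.

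**Figure D2:**
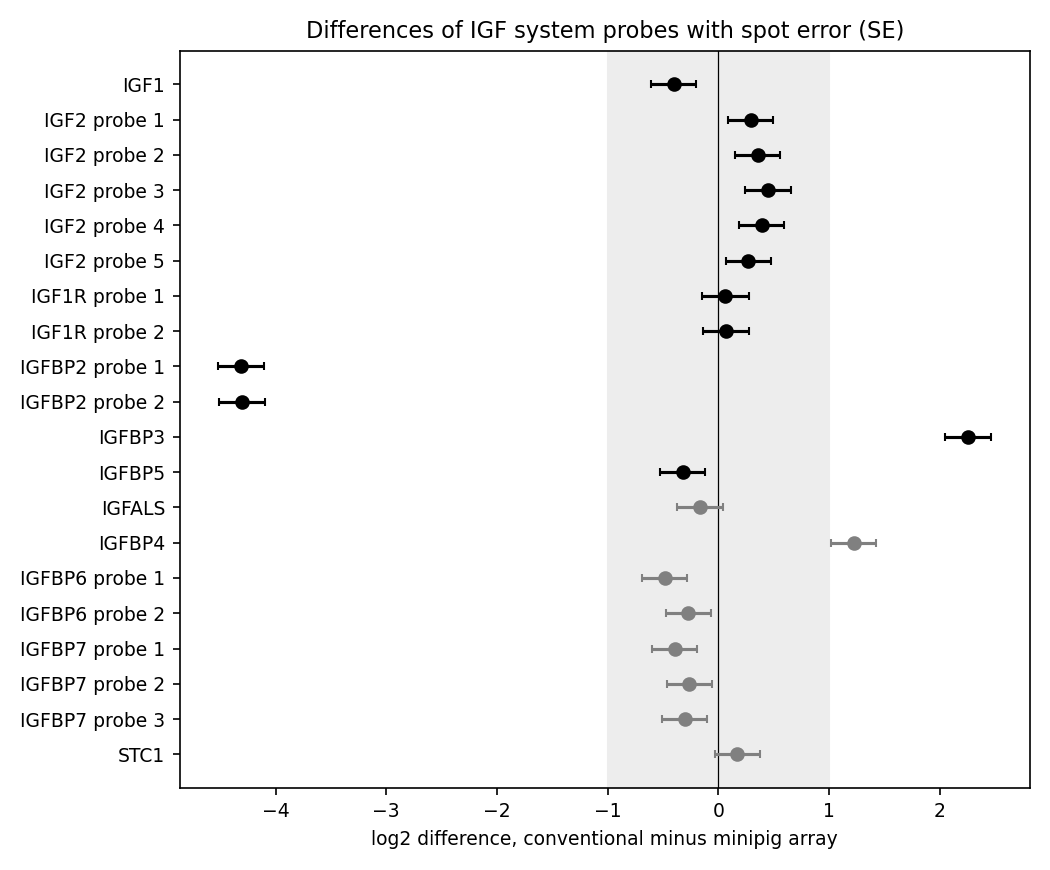
Log2 differences (conventional minus minipig array) of the 12 probes of the 6 genes (black) and of other binding protein, IGFALS and STC1 probes (grey). Bars are the SE from the scanner software's error of the spots, and the shaded band marks differences under 2-fold. IGFBP2 at -4.31 and -4.30, IGFBP3 at 2.25 and IGFBP4 at 1.22 lie outside the band.

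Past a cutoff of 2-fold, 1 of the 12 probes was higher on the conventional array and 2 on the minipig array. Of all 38883 probes with a difference or a bound, 7.48% (2909) and 8.94% (3475) were past this cutoff in the same order. The split over all probes turned to 3840 and 2579 after median centring and to 2020 and 1411 after normexp background correction, while that of the 12 probes stayed at 1 and 2. Counted as genes, with the median over the probes of a gene, 1 of the 6 was 2-fold higher on each array, against 11.7% of all named genes on the conventional array and 7.96% on the minipig array. A count of 1 of 6 genes on either array is close to these shares and is no result about the 6 genes as a group. The median over the 6 genes was -0.13, and that over all named genes was 0.04. The members themselves lay far apart. The log2 differences of IGFBP3 and IGFBP2 lay 6.56 apart, so the signal of IGFBP3 relative to that of IGFBP2 was 94.5-fold greater on the conventional array than on the minipig array. Over 7 alternatives of scaling, background and filtering, this gap ran from 5.91 to 6.91. Only quantile normalization (6.90), loess normalization (6.91) and normexp correction (5.91) could move it. The other alternatives change a constant of each array or filter dim probes, so the gap stayed at 6.56 by construction.

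**Figure D3:**
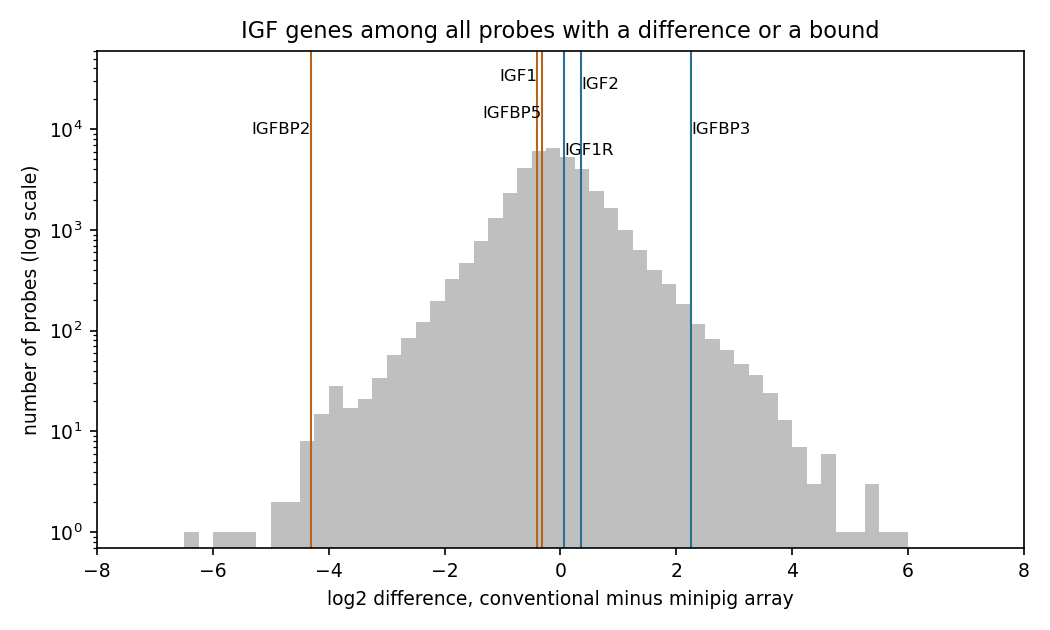
Number of probes (log scale) by log2 difference, conventional minus minipig array, for all 38883 probes with a difference or a bound in bins of 0.25, with the values of the 6 genes as lines. IGF1 (-0.40), IGFBP5 (-0.32), IGF1R (0.06) and IGF2 (0.35) fall in the bulk of the distribution, and IGFBP2 (-4.31) and IGFBP3 (2.25) fall in opposite tails.

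The direction of each of the 6 genes held under the 9 ways of scaling, filtering and combining the probes of the scanner files. The filters on dim probes could not change it, since all 12 probes are well above background on both arrays. For IGF1, IGFBP3 and IGFBP5, with 1 probe each, neither could the ways of combining probes. IGF1 ran from -0.44 to -0.25 and IGFBP5 from -0.40 to -0.17. IGF2 ran from 0.22 to 0.51, IGF1R from 0.03 to 0.22. IGFBP2 and IGFBP3 were past 2-fold in each of these settings, at -4.53 to -4.09 and 1.82 to 2.41. The 4 smaller differences moved by a good part of their own size with the scaling. The table of normalized values lists the 2 probes of IGFBP2 and the probe of IGFBP3, with the breeds exchanged, and none of the other 9.

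**Figure D4:**
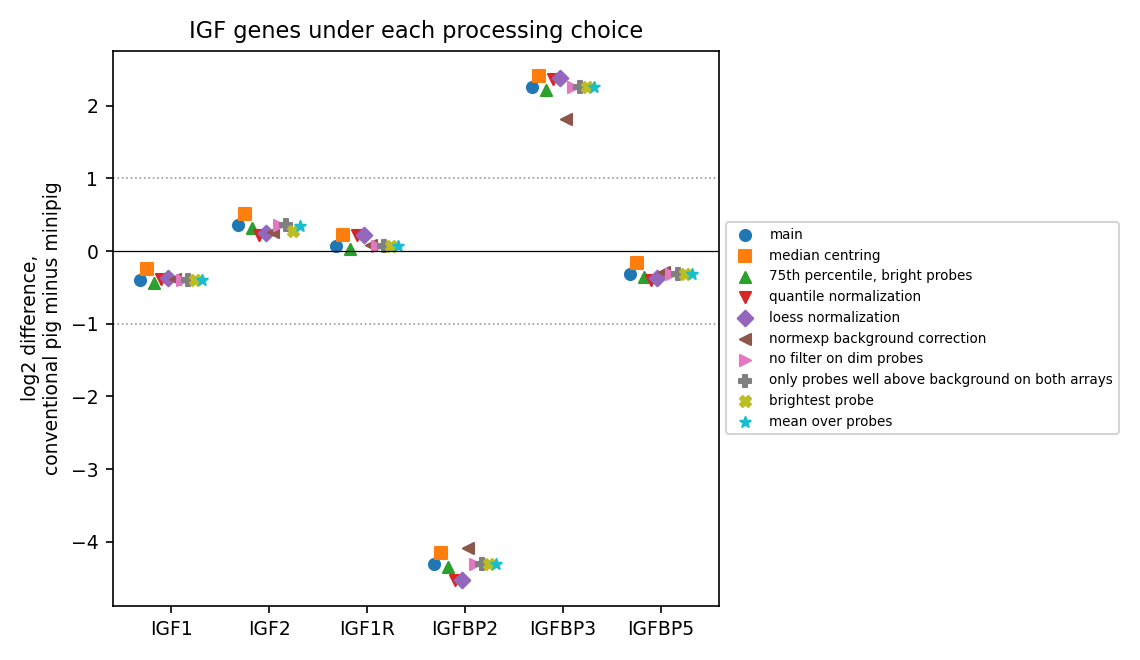
Log2 difference (conventional minus minipig array) of each of the 6 genes under the main processing and 9 alternatives, with dotted lines at 2-fold. Each gene stays on its side of 0, and the lowest value of IGFBP3 (1.82) comes from normexp background correction. The filters on dim probes could not move any of the 6.

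Other genes of the IGF system were taken from a list of 26, of which 12 had a value, which is too few to stand for the list. The binding protein IGFBP4, whose cleavage by PAPP-A is a known step in follicle selection, had an intensity of 455 on the minipig array against 1100 on the conventional array. Its log2 difference of 1.22, or 2.33-fold, came from 1 probe. Of the 6 measured binding proteins, IGFBP3 and IGFBP4 were past 2-fold on the conventional array. IGFBP6, which prefers IGF2 as its ligand, had 2 probes at -0.49 and -0.27. The 3 probes of IGFBP7, which binds IGFs weakly, lay between -0.39 and -0.26. Thus 4 of the 6 measured binding proteins were higher on the minipig array, but IGFBP2 alone of these was past 2-fold. IGFBP5, IGFBP6 and IGFBP7, at -0.32, -0.38 and -0.30, stayed within 2 SDs of repeated spots (0.51). Of the 2363 named genes, the minipig side held 1123. Past 2-fold were 7.96% there and 11.7% on the conventional array. With 6 genes, these counts are no result about the binding proteins as a group.

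IGFALS, the acid-labile subunit that joins IGFBP3 in blood, differed by -0.17. STC1, a secreted inhibitor of PAPP-A, differed by 0.17. The related inhibitor STC2 was not well above background on the minipig array, at an intensity of 9.85 against 20.6. Its bound was 1.87-fold higher on the conventional array (0.91 on the log2 scale), and holds for the main background correction only. The SE of the spots of this probe was 0.45. With normexp correction the log2 value of STC2 was 0.13. Of the genes with protease or other roles in the list, CTSD (1.30), which encodes cathepsin D, and MMP9 (1.29), a matrix metalloproteinase, were past 2-fold on the conventional array, and MMP2 (-0.61) was the lowest. GHR, the growth hormone receptor, differed by 0.01. Of all named genes with a value, 11.7% were 2-fold higher on the conventional array and 7.96% on the minipig array. Over the 12 genes, 7 were higher on the conventional array, 3 of them past 2-fold. The other 5 were higher on the minipig array, none past 2-fold. Over 7 alternatives of scaling, background and filtering, the number higher on the conventional array ran from 6 to 8 and the number past 2-fold there was 3 or 4. Their median log2 difference was 0.09, near the 0.04 of all named genes. IGF2R, PAPPA and INSR were not named on the array.

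Of 39 genes of signaling below the receptor, 10 had a value and none was past 2-fold. These 10 are likewise too small a share to represent the list. AKT1, the kinase at the center of the survival branch, differed by -0.16. The adaptors GRB2 and GRB10 differed by 0.61 and 0.47, and the kinase MAP2K1 by 0.82, although its 5 probes ran from -0.17 to 1.44. The transcription factor FOXO3, which AKT holds out of the nucleus, differed by -0.55. The median over the 10 genes was 0.36, with 6 higher on the conventional array and 4 on the minipig array. Over all 2363 named genes with a value the median was 0.04, with 1240 and 1123 in the same order. IRS1 and IRS2 were not named on the array.

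**Figure D5:**
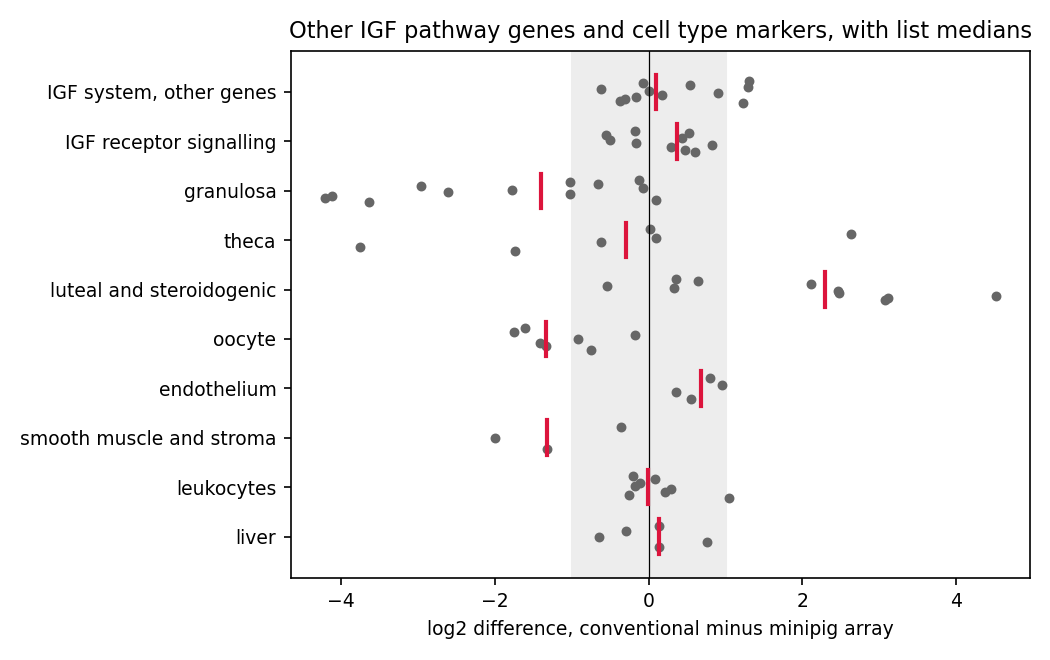
Log2 difference (conventional minus minipig array) of each gene with a value (points), by list, with the median of each list as a red bar and the range under 2-fold shaded. The lists of IGF system and receptor signaling genes have medians of 0.09 and 0.36, and the granulosa and the luteal and steroidogenic lists have medians of -1.40 and 2.29.

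Markers of ovarian cell types also differed between the arrays. Markers of granulosa, theca and oocyte cells, which define ovarian tissue, were measured on both arrays. For comparison, the minipig side held 1123 of the 2363 named genes, and 7.96% of the 2363 were past 2-fold there. Of 12 granulosa markers with a value out of 17, 11 were higher on the minipig array, as IGFBP2 was, 8 of them past 2-fold. After median centring these counts were 9 and 6. Their intensities, each gene relative to the 75th percentile of its array, were summed. The sums came to 144 for the minipig array and to 62.0 for the conventional array. Such sums, here and below, add probes that bind with different strength. The brightest genes weigh most in them, so they need not describe a cell type. The brightest granulosa marker was SERPINE2, with levels of 6.46 (minipig) and 5.26 (conventional). Each of the 12 had a probe well above background on each array. Log2 differences ran from CYP19A2 (-4.22) to CYP19A1 (0.09). These and CYP19A3 (-4.11) are aromatase genes that are close paralogs of each other, so what their probes mark is uncertain. CYP19A2 and CYP19A3 count among the 8 past 2-fold and need not mark granulosa cells. The 6 theca markers with a value out of 10 ran from INSL3 (-3.76) to CYP11A1 (2.63), with sums of 158 and 126. The brightest of them on the minipig array were INSL3 (level 6.17) and ACTA2 (6.08). The brightest on the conventional array was ACTA2 (6.17). All 7 oocyte markers with a value out of 15, from MOS (-1.75) to BMP15 (-0.18), were higher on the minipig array. After normexp correction 6 of the 7 were. Their sums were 4.19 and 1.71. Some marker genes had probes on both sides of 0. The probes of ZP2 lay at -1.96 and 0.46 and those of BMP15 at -0.42 and 0.05. Those of CYP19A1 lay at -0.34 and 0.52, the brighter probe at 0.52, and those of FST at -0.18 and 0.03. Probes of NR5A1, a theca marker, ran from -0.72 to 0.75. Those of INHBA, counted among the granulosa markers past 2-fold, lay at -3.91 and 0.37. In tissue that holds several cell types, fewer cells of a type and less RNA per cell cannot be told apart.

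Over all named genes with a value, 1240 of 2363 were higher on the conventional array, and 11.7% were 2-fold higher there. Of 10 luteal and steroidogenic markers with a value out of 14, 9 were higher on the conventional array, as IGFBP3 and IGFBP4 were, 6 of them past 2-fold. Their values ran from PRLR (-0.55) to SCP2 (4.52), with sums of 178 on the minipig array against 490 on the conventional array, and each had a probe well above background on each array. All 4 endothelial markers with a value out of 12 were also higher there, from CDH5 (0.36) to FLT1 (0.95). Their sums were 4.04 and 6.51. Probes of AKR1C1 (-0.53 to 2.35) and CDH5 (-0.02 to 0.74), both counted here, lay on both sides of 0. The 3 markers of smooth muscle and stroma with a value out of 13 ran from DES (-2.0) to DCN (-0.36), with sums of 59.9 and 40.5. Leukocyte markers, 8 of 14 with a value, ran from CD163 (-0.25) to CD14 (1.04), and liver markers, 5 of 9, from TF (-0.65) to APOA1 (0.76). The part of these cell types in the differences of the IGF genes was not tested.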

How the data were processed

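Per the labels, the authors scanned 1 single-colour array per breed and ran Agilent Feature Extraction 10.7.3.1. The deposited processed intensity is corrected for background and spatial trend, with no scaling between arrays. A second deposited table holds log2 values of 5617 probes, which are the logged intensities less a constant for each array. The paper names GeneSpring for normalization. Every probe in that table differs at least 2-fold. Other deposited columns, flags for outliers, saturation and signal well above background, were used as given.

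Control spots and flagged outlier spots (5 on the minipig array, 10 on the conventional array) were left out, repeated spots were averaged on the log2 scale, and the 75th percentile of each array was subtracted. No spot was saturated. Median intensities were 127 and 119, and 88.1% and 85.2% of probes were well above background on the minipig and the conventional array. Where only 1 array was, the other was set to the lowest intensity well above background, or to the probe's own if higher, which gives a bound. A gene's value is the median over its probes. Accessions matched without versions to RefSeq (Sscrofa11.1) named 5577 probes, and its gene order was used only to find neighbouring genes. No coordinates are given, since the files name no genome build.

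The members and lists were chosen with earlier results of these data known. The genes named were the 6 members, genes of the 2 IGF lists past 2-fold with a few set receptors, inhibitors and kinases, and the gene highest on each array in each marker list. Other IGF genes, namely IGFBP6, IGFBP7, IGFALS, MMP2, GHR, GRB2, GRB10, MAP2K1 and FOXO3, were named after their values were seen. So were INS and the marker genes that were not the highest on an array. The value of 1 gene counted in the signaling list is not reported here. The alternatives were median centring, the 75th percentile over bright probes, quantile and loess (span 0.3) normalization, normexp (offset 50) on median spot signals, filters on dim probes, the brightest probe, the mean over probes, the deposited table, and cutoffs of 1.5-fold and 3-fold. Python 3.11.15 with numpy 2.4.6, pandas 2.3.3, statsmodels 0.14.6 and matplotlib 3.10.9 was used, and R 4.3.3 with limma 3.58.1. The steps were tested on simulated data.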

Additional observations from a re-analysis of the deposited data

How the results depend on the processing

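Median centring moved the median log2 difference of all probes by 0.15, loess by 0.11 and quantile normalization by 0.11, all toward the conventional array. Apart from the deposited table and normexp correction, alternatives moved the 6 genes by less than the SD of repeated spots (0.25). The number of their probes past 2-fold was the same under every scaling and background alternative, and also at cutoffs of 1.5-fold and 3-fold. The filters on dim probes could not change it, since all 12 probes were well above background. With its own breed labels, the deposited table gave 4.31 for IGFBP2, -2.25 for IGFBP3 and -1.22 for IGFBP4, each the reverse. Normexp correction took IGFBP3 to 1.82 and the count of all probes past 2-fold on the side of the minipig array from 3475 to 1411. The log2 value of STC2 ran from 0.13 under normexp correction to 1.30, past 2-fold under quantile and loess normalization, after median centring and with no filter on dim probes. The cause was not tested. The medians of the IGF system and receptor signaling lists ran from 0.01 to 0.24 and from 0.29 to 0.52. Dim signal limits IGFBP3 and STC2 on the minipig array. Without a second array per breed, no alternative measures variation between animals.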
